A study of Mus musculus with 33 samples.

Results

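The Ier5 locus of the mouse is described here by the p53 peaks called in it in Eµ-myc lymphomas. The members are the peaks that overlap a window of 90 kb on chromosome 1, from 156880000 to 156970000 (build mm9), which holds the gene Ier5 and its flanking DNA. They number 53 of the 102916 peaks in 26 lists, and every list has at least 1. The locus was chosen by measured values, namely a peak in every list and a wide region in the window, so those 2 properties are given as a description, with no test. The tests below compare treatments in covered length and in percentile of width, and the choice of a wide region enters both measures. Merging all lists gave 18927 regions, of which 9 (0.0476%) had a peak in every list. The lists give no gene names, and the position of Ier5 in mm9 was not analysed here, so that peaks are placed by coordinate and not as exonic, intronic or promoter peaks. The Ier5 peak below means the widest peak of the window, and which peak lies nearest to the start of the gene was not analysed here. The name thus does not mark it as the peak at the gene's start.

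The lists come from ChIP-seq, in which chromatin bound by p53 is pulled down with an antibody and its DNA is sequenced. All tumours were B cell lymphomas from lymph nodes of C57/Bl6 mice with the Eµ-myc transgene, which drives the Myc oncogene in B cells; nodes were dissociated without purifying the tumour cells. Tumours 1 to 4 (KI tumours) had the genotype Trp53(KI/delta), a knock-in allele over a deleted one, and their cells received 100 nM OHT (4-hydroxytamoxifen), given to restore p53, or the solvent ethanol (EtOH, 1 volume per 1000) for 2 h. Tumours 5 to 7 (Arf tumours) were Arf-/- Trp53+/+, and were untreated or received for 3 h water (1 volume per 1000), DMSO (0.5 volumes per 1000), 5 µM (+)-Nutlin, 5 µM (-)-Nutlin or 1 µM doxorubicin. Each treatment gave 1 list per tumour, hence 4 lists for EtOH and for OHT and 3 for every other group. The 10 lists of OHT, doxorubicin and (-)-Nutlin are called activated below, and the other 16 unactivated. The question is where p53 binds once it is restored or activated.

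Ier5 (immediate early response 5) belongs to a small family of genes that are switched on quickly by growth signals and stress. Its protein is nuclear, binds the phosphatase PP2A and the heat shock factor HSF1, and promotes HSF1 activity. The gene is a known target of p53, a tetrameric transcription factor that recognises pairs of a decamer half-site, and that is held low by Mdm2 and freed by DNA damage or by drugs that block Mdm2. Arf inhibits Mdm2, doxorubicin damages DNA, and of the mirror-image Nutlins the (-) form is the one that binds Mdm2.

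The gene's own start is shown as the reference sequence for the locus, since no sequence under the peaks was read here. The 250 bases before the start of Ier5, from RefSeq, lie at chr1:155099637-155099886 on the minus strand of GRCm38.p6, a build other than that of the peaks. Capitals mark, in order, a p53 half-site decamer, 2 copies of CCAAT read on the opposite strand, and TATATAA.
Ier5: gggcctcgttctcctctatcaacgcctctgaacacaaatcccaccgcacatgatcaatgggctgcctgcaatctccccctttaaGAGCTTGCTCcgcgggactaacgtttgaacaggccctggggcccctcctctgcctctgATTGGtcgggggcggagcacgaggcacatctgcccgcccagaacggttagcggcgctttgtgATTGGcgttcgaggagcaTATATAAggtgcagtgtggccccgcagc
On either strand, the p53 half-site decamer occurs in 7.12% of 32817 stretches of this length before RefSeq gene starts, CCAAT in 33.8% and TATATAA in 3.04%. The match is a description of letters, and whether any peak covers it was not tested. In the GRCm38 gene table Ier5 is followed in the order of the chromosome by Gm41981, Gm30922 and Mr1 and preceded by Gm41979, Gm51651 and Gm9530, with Cacna1e as the nearest coding gene on that side.

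The lists hold positions only, so covered length (base pairs under peaks), width and rank by width are the measures of size used here. Whether they follow the strength of binding was not tested. By peak width the lists are of 2 kinds. The narrow kind is 12 lists with a smallest peak of 52 to 54 bp and medians of 68 to 111 bp. The wide kind is 14 lists with a smallest peak of 278 to 391 bp and medians of 417 to 552 bp. All activated lists and all lists of tumour 5 are wide, and all EtOH lists and the unactivated lists of tumours 6 and 7 are narrow. Activated lists held 3597 to 11346 peaks and unactivated lists 116 to 2696. The read depth is unknown. How far the kind of list shapes a difference between groups was not tested, and in KI tumours kind and treatment cannot be told apart.

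A wide p53 peak lay at the same place in all 26 lists. A stretch of 596 bp, from 156903166 to 156903761, was under the widest window peak of every list, and it equals the peak of EtOH tumour 2. Distances below are from the centre of this shared stretch. The widest peaks together spanned 3184 bp, from 156902108 to 156905291, and their midpoints fell between 292 bp before and 291 bp after the centre. The position of the main peak thus varied by far less than its width.

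**Figure D1:**
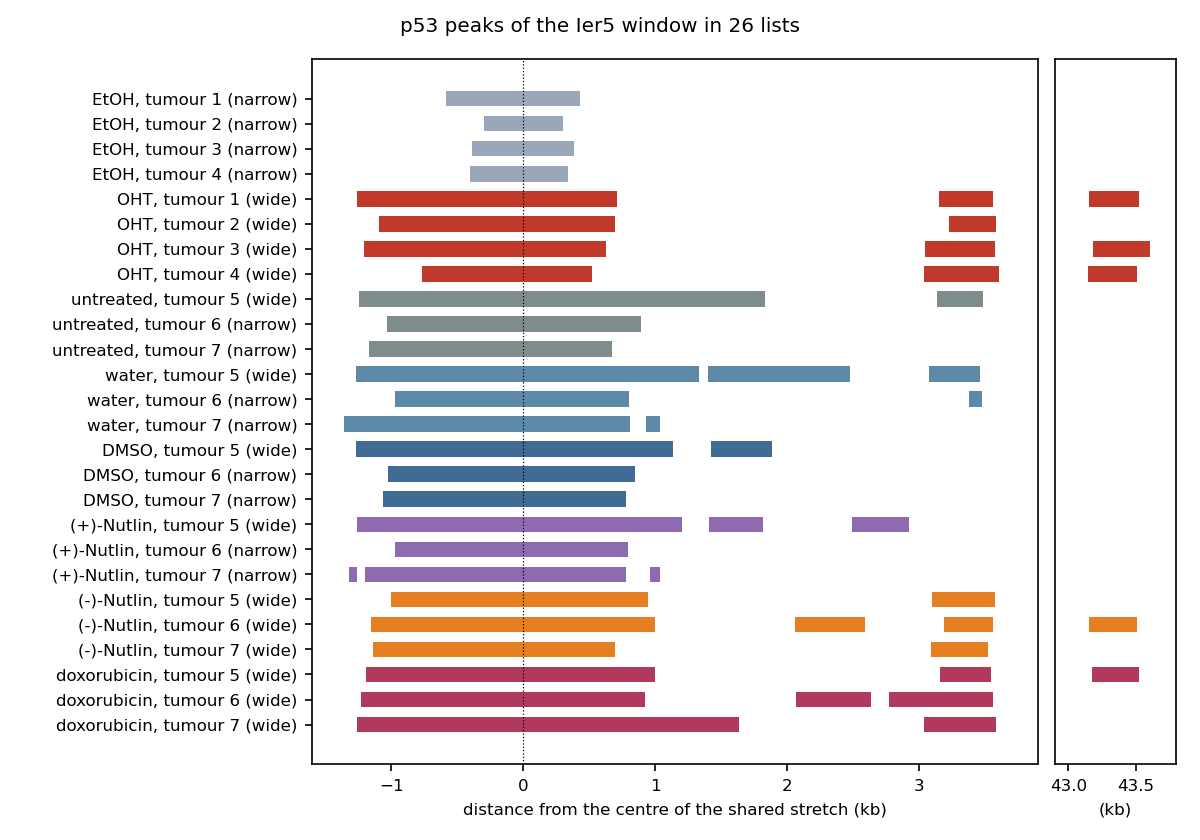
Each row is 1 list, with its tumour and kind (narrow or wide), and each bar a deposited peak of the Ier5 window; the x axis is the distance in kb from the centre of the stretch of 596 bp shared by all lists, with a break before the distant site at 43.3 kb. The EtOH lists show a single short peak, the other lists a longer one at the same place, and all activated lists a further peak near 3.3 kb.

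Before p53 was restored, KI tumours already carried the peak, and it was short. In EtOH lists it was 1010 bp in tumour 1, 596 bp in tumour 2, 767 bp in tumour 3 and 747 bp in tumour 4, and it was their single peak in the window. In 3 of these lists it was the widest peak of all, and in tumour 1 the third of 116. Against the list's own median width it was 8.76 to 10.65 times as wide. The Ier5 peak was thus at or near the top of lists that held few sites.

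In each of the 4 KI tumours, p53 peaks at Ier5 covered more base pairs with OHT than with EtOH. Covered length after OHT was 2746 bp in tumour 1, 2151 bp in tumour 2, 2788 bp in tumour 3 and 2217 bp in tumour 4, and 2476 ± 338 bp (SD, n = 4) on average against 780 ± 171 bp (SD, n = 4) with EtOH. The groups did not overlap. The ratio of geometric means was 3.21, with 2.72, 3.61, 3.63 and 2.97 in tumours 1 to 4 and a paired 95% interval from 2.55 to 4.04. The two-sided exact permutation p was 0.0286, the smallest possible for 4 against 4. After Benjamini-Hochberg adjustment over the 12 tests made it was 0.343. With 4 lists in each group this comparison could not have passed the correction, whatever the lists held. Most other tests had 3 lists in each group, and their smallest possible p is larger still, at 0.1. That the adjusted p did not pass thus says nothing about the difference. Of the 10 regions with a peak in every EtOH and every OHT list, 9 (90%) were longer in every OHT list than in every EtOH list, so the separation at Ier5 is no exception. All EtOH lists were narrow and all OHT lists wide.

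By the main peak alone, the ratio of OHT to EtOH at Ier5 was the smallest of those 10 regions. The peak measured 1968, 1791, 1834 and 1288 bp in OHT tumours 1 to 4, and the region's log2 ratio to EtOH was 1.15, against a median of 1.82. Over the whole window, with the smaller peaks described below, the log2 difference was 1.68. A small ratio is in part built into the choice of a locus with a wide region and a peak in every list, so its standing is a description only. The main OHT peaks reached farther on both sides of the centre, to 1081 ± 221 bp (SD, n = 4) on the left and 638 ± 86 bp (SD, n = 4) on the right. With EtOH these arms were 417 ± 120 bp and 362 ± 55 bp (SD, n = 4). The left arm was the longer in every OHT list.

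**Figure D2:**
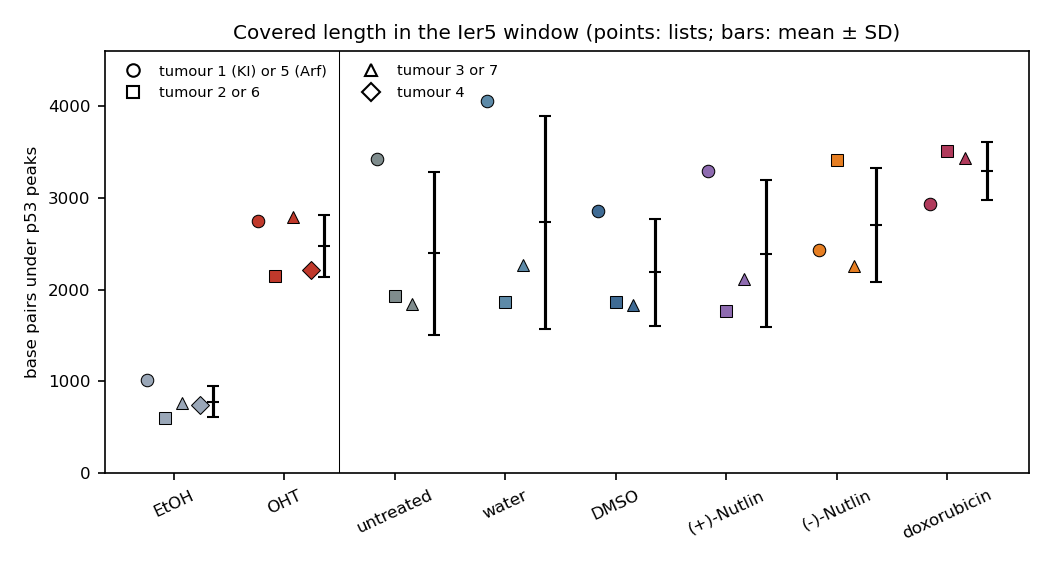
Base pairs under p53 peaks in the Ier5 window (y axis) by treatment (x axis), 1 point per list with the tumour as symbol, and the mean ± SD of each group as a bar. EtOH lists lie between 596 and 1010 bp, and no other list is below 1763 bp.

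Arf tumours had a long Ier5 peak without any activator. In untreated cells the main peak was 3074 bp in tumour 5, 1926 bp in tumour 6 and 1844 bp in tumour 7. Covered length was 3421, 1926 and 1844 bp, above every EtOH list. Of the 9 regions with a peak in every untreated Arf and every EtOH list, 8 (88.9%) were separated in the same way. Genotype, time and solvent differ here together, in tumour 5 also the kind of list; the untreated lists of tumours 6 and 7 are narrow, with medians of 96 and 100.5 bp against 68 to 105.5 bp with EtOH. The part of each in the gap was not tested.

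Water, DMSO and (+)-Nutlin left a main peak of similar size. With water it was 2593, 1770 and 2165 bp in tumours 5, 6 and 7, with DMSO 2401, 1867 and 1838 bp, and with (+)-Nutlin 2462, 1763 and 1980 bp. In each of these groups, and in untreated cells, tumour 5 had the longest peak. It also had the most covered length, 2860 to 4057 bp over its 4 unactivated lists against 1763 to 2273 bp in tumours 6 and 7. These tumour 5 lists are wide and the others narrow, and the part of the kind of list in this gap was not tested.

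Doxorubicin did not separate from water at Ier5. Covered length was 2931, 3512 and 3439 bp with doxorubicin and 4057, 1870 and 2273 bp with water in tumours 5, 6 and 7, so the groups overlapped. Their means were 3294 ± 316 bp and 2733 ± 1164 bp (SD, n = 3). The ratio of geometric means was 1.27 with a paired 95% interval from 0.37 to 4.41, and the two-sided exact permutation p was 0.4, where the smallest possible is 0.1. It was 1.88 in tumour 6 and 1.51 in tumour 7 but 0.72 in tumour 5, the tumour whose lists are both wide. Of 436 regions with a peak in every list of both groups, 71.6% were longer in every doxorubicin list than in every water list, and the Ier5 region was not among them.

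The active Nutlin likewise did not separate from its solvent at Ier5. Covered length with (-)-Nutlin was 2434, 3417 and 2260 bp in tumours 5, 6 and 7, and with DMSO 2860, 1867 and 1838 bp. The ratio was 1.24, with a paired 95% interval from 0.48 to 3.22. The two-sided exact permutation p was 0.3, where the smallest possible is 0.1. Tumour 5 again went the other way, at 0.85, against 1.83 in tumour 6 and 1.23 in tumour 7. Of 395 regions with a peak in every list of both groups, 51.9% separated in the direction of longer peaks with (-)-Nutlin; the Ier5 region did not.

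The Nutlins, mirror images given at the same dose and time, were compared with each other and with DMSO in 3 pairs. (+)-Nutlin covered 3297, 1763 and 2117 bp in tumours 5, 6 and 7. (-)-Nutlin against (+)-Nutlin gave a ratio of 1.15, with a paired 95% interval from 0.34 to 3.86 and a two-sided exact permutation p of 0.5. The ratio was 0.74, 1.94 and 1.07 in tumours 5, 6 and 7. (+)-Nutlin against DMSO gave 1.08, from 0.81 to 1.43, with an exact permutation p of 0.7. Adjusted over the 12 tests these p-values were 0.8 and 0.84, and 0.8 for (-)-Nutlin against DMSO. In covered length a difference between the enantiomers was not detectable, and the intervals leave room for one in either direction. A small peak 3.3 kb from the main one, described below, was called in all 3 (-)-Nutlin lists and in no (+)-Nutlin list. The (-)-Nutlin lists held 5617 to 10674 peaks and the (+)-Nutlin lists 707 to 2351. The share of all regions that split in this way was not counted, so the split is not read as a trait of Ier5. Of 371 regions in every list of both Nutlins, 35.6% were longer in every (-)-Nutlin list, while of 325 regions in every (+)-Nutlin and DMSO list 0% were longer in every (+)-Nutlin list.

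The main region was set beside other sites called in all lists of a comparison. Since the locus was chosen for a wide region with a peak in every list, a small ratio between activated and unactivated lists is in part built into the choice, and its standing is a description only. The satellite at 3.3 kb is a separate region in the next 3 comparisons and is left out of them; over the whole window the log2 difference was 0.35 for doxorubicin and 0.31 for (-)-Nutlin. From water to doxorubicin the log2 ratio of the main region was 0.08, against a median of 1.52, and 435 of the 436 regions had a larger one. From DMSO to (-)-Nutlin it was -0.03 against a median of 1.29, with 386 of 395 regions above it. From DMSO to (+)-Nutlin it was 0.05 and the median 0.03, with 142 of 325 above. In the joined comparison of 6 activated with 12 other Arf lists, where the satellite is merged with the main peak, it was 0.29 against a median of 1.17, with 278 of 292 regions above and 13 below. In tumours 6 and 7 these comparisons go from narrow to wide lists, except that of (+)-Nutlin with DMSO.

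In tumour 5 alone, where all lists are wide, the medians were smaller and the Ier5 main region was less far from the rest. These medians are over larger sets of regions, called in the 1 list on each side. They do not compare the same regions, and the part of the kind of list was not tested. From water to doxorubicin the log2 ratio of the Ier5 main region was -0.24, the median over 2147 regions 0.52, and 112 regions lay below Ier5. Of all these regions 87.1% were longer and 12.7% shorter with doxorubicin. From DMSO to (-)-Nutlin it was -0.30, the median over 1651 regions 0.44, and 99 regions lay below Ier5, with 84.7% longer and 15.2% shorter. With 1 list on each side there is no replicate check of these values.

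**Figure D3:**
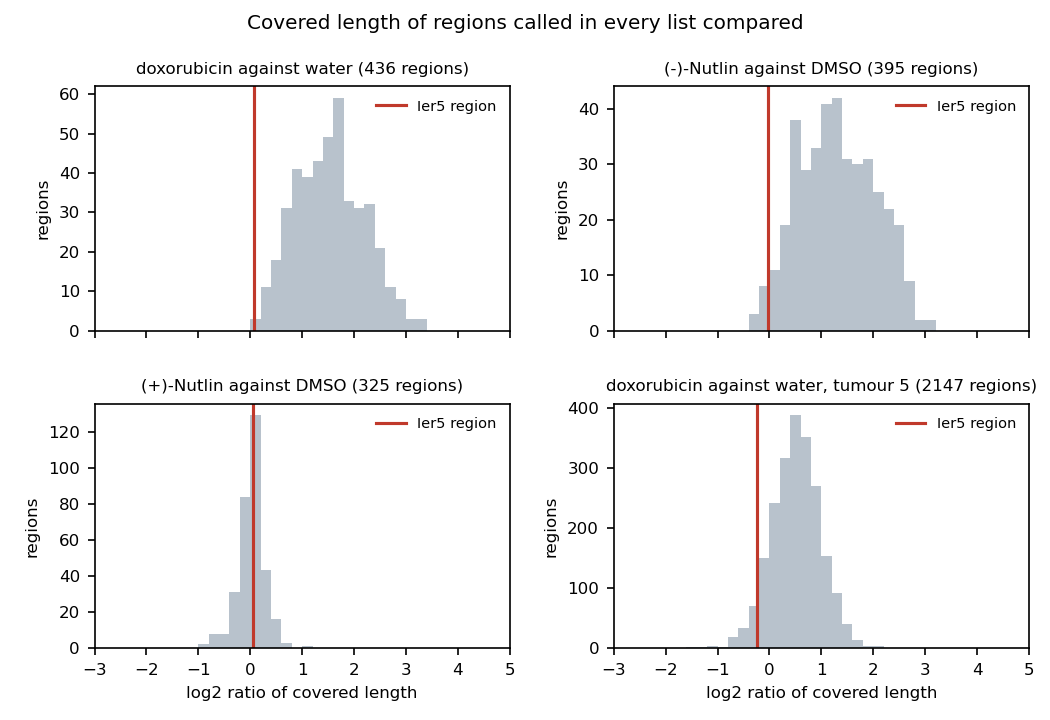
Histograms of the log2 ratio of covered length (x axis) over regions with a peak in every list compared, as numbers of regions (y axis), with the Ier5 main region as a red line. The red line is left of nearly all regions for doxorubicin against water (0.08, with 435 of 436 above), in the lower tail for (-)-Nutlin against DMSO, and near the middle for (+)-Nutlin against DMSO.

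When doxorubicin and (-)-Nutlin lists were joined and set against the other 12 Arf lists, coverage of the Ier5 window was 2999 ± 548 bp (SD, n = 6) against 2428 ± 781 bp (SD, n = 12). The log2 difference was 0.34, a ratio of 1.27. The two-sided exact permutation p was 0.0926, 0.556 after adjustment over the 12 tests, and 0.0504 when labels were permuted within tumours. Tumours 6 and 7 were higher in activated lists and tumour 5 lower. Without tumour 5 the log2 difference was 0.69 (exact permutation p = 0.00404, adjusted p = 0.0485), in a comparison of wide with narrow lists. That p permutes the lists of tumours 6 and 7 freely and not within tumours. Of 292 regions with a peak in all 18 Arf lists, 18.8% were longer in every activated list than in every other, and the Ier5 region was not. The lists of a tumour come from the same cells, so that the 18 lists are not 18 independent samples.

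Within its list, the Ier5 peak was among the 47 widest in all 26. It was the widest peak of 9 lists, all of them narrow, and among the 10 widest in 18. In unactivated Arf lists its rank was 1 in tumours 6 and 7 untreated and with water or DMSO, 2 in both with (+)-Nutlin, and 2, 7, 9 and 11 in tumour 5 (untreated, water, DMSO and (+)-Nutlin). In activated lists it was 17, 10, 15 and 40 with OHT in tumours 1 to 4, 12, 8 and 23 with (-)-Nutlin and 21, 47 and 10 with doxorubicin in tumours 5 to 7. A rank in a longer list does not compare with one in a shorter list, and as a percentile, the percentage of other peaks of the list that are narrower, the peak stood between 98.3 and 100 in all 26.

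The percentile is near its ceiling in every list, in part through the choice of a locus with a wide region. It leaves little room for a difference between treatments, and its tests do not show that the peak kept its standing. OHT lists stood at 99.71 ± 0.12 and EtOH lists at 99.57 ± 0.87 (SD, n = 4), with a two-sided exact permutation p of 1. The 5 comparisons in Arf tumours differed by little, the most between doxorubicin and water, at -0.19 percentage points, with exact permutation p between 0.235 and 0.8 (adjusted 0.8 to 0.873). In times the list's median width, the peak measured 17.5 to 21.8 in narrow Arf lists, 4.75 to 7.35 in unactivated tumour 5 lists and 2.86 to 5.24 in activated lists. The first of these figures goes with medians of 93 to 111 bp, and the peak itself, 1763 to 2165 bp, was about as wide as in activated lists of the same tumours, 1831 to 2893 bp.

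**Figure D4:**
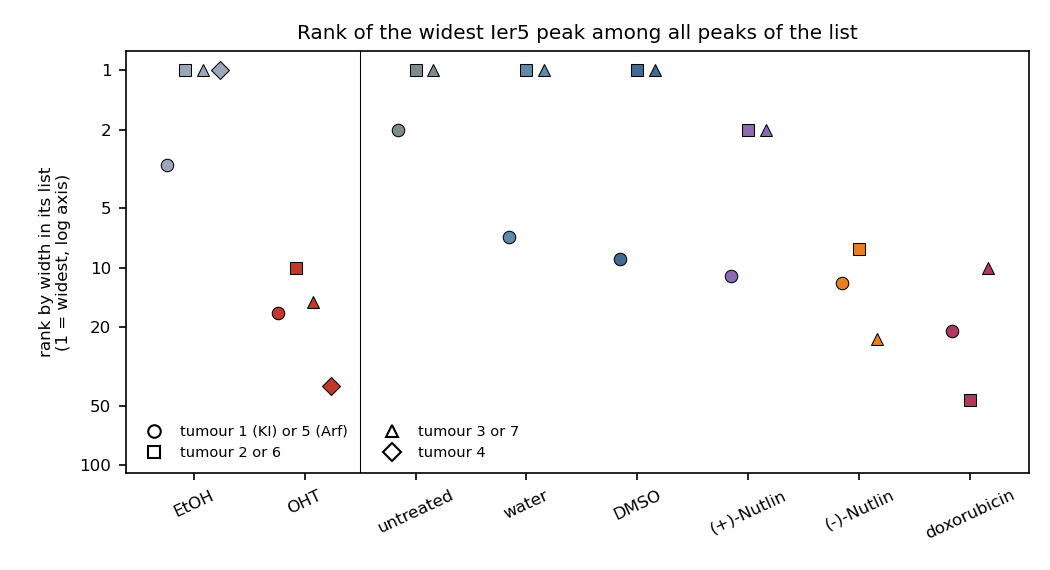
Rank of the widest Ier5 peak by width among all peaks of its list (y axis, logarithmic, 1 at the top) by treatment (x axis), 1 point per list with the tumour as symbol. Unactivated lists lie at ranks 1 to 11 and activated lists at 8 to 47, in lists of more peaks.

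The shape of the main peak differed more on its right side than on its left. Leaving out EtOH, the left edge lay 766 to 1356 bp from the centre (SD 138, n = 22) and the right edge 522 to 1828 bp (SD 321, n = 22). Edges over 1.1 kb to the right occurred in the 4 unactivated lists of tumour 5, at 1132 to 1828 bp, and in doxorubicin tumour 7, at 1631 bp. In OHT lists the right edge was at 522 to 710 bp, below nearly all Arf lists, of which untreated tumour 7 (676 bp) and (-)-Nutlin tumour 7 (696 bp) were as short.

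**Figure D5:**
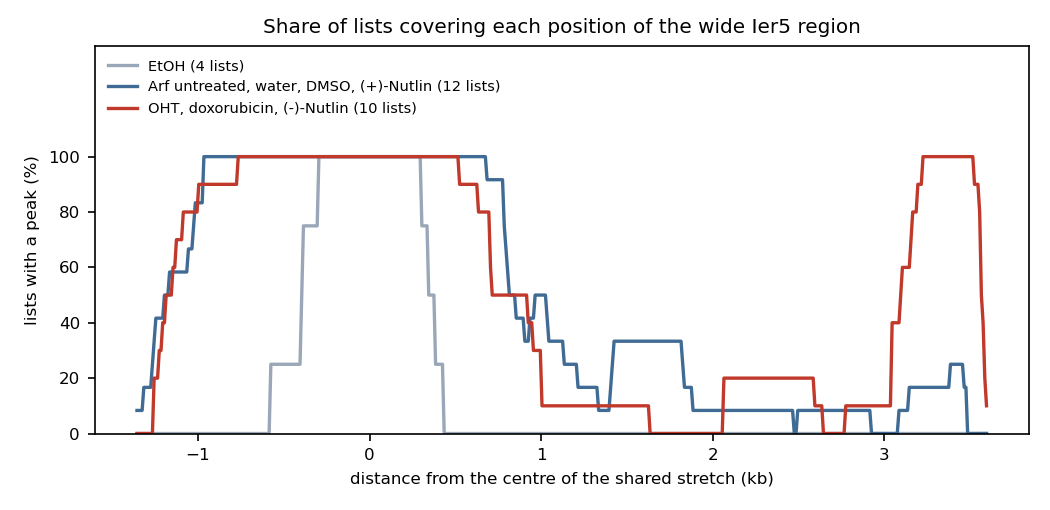
Percentage of lists with a peak (y axis) at each position of the wide Ier5 region (x axis, kb from the centre of the shared stretch), for the 4 EtOH lists, the 12 unactivated Arf lists and the 10 activated lists. All 3 lines reach 100% around the centre, and at 3.3 kb the activated lists reach it again while the unactivated Arf lists stay at or below 25%.

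A further, small peak lay 3.3 kb to the right of the centre, and it was called mostly in activated lists. It was called in all 4 OHT, all 3 doxorubicin and all 3 (-)-Nutlin lists, and in no EtOH, DMSO or (+)-Nutlin list. Besides, 3 unactivated lists held it, untreated tumour 5 (347 bp), water tumour 5 (389 bp) and water tumour 6 (100 bp). Its 13 peaks lay between 156906232 and 156907064, with midpoints 3163 to 3429 bp from the centre and a median width of 407 bp. With OHT it measured 407, 360, 530 and 564 bp in tumours 1 to 4. With doxorubicin it was 388, 789 and 546 bp, and with (-)-Nutlin 481, 371 and 429 bp, in tumours 5, 6 and 7. These widths are ordinary for their lists, at percentiles from 7.76 to 75.8.

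The pattern of this satellite is a common one in these data. Of 1091 regions with a peak in all 10 activated lists, 44.6% had a peak in at most 3 of the 16 others, and of all 18927 regions 2.57% met both conditions. These shares count merged regions, in which the satellite itself is joined to the main peak. The unactivated lists that held it were not the longest alone. Untreated tumour 5 (2696 peaks) and water tumour 5 (2206) had it, but (+)-Nutlin tumour 5 (2351 peaks) and untreated tumour 6 (2180) did not, while water tumour 6 (1662) did. The satellite was picked out with its values in view, so no test is given.

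Apart from the main peak and the satellite, some lists held sub-peaks, grouped here by midpoint. Their midpoints differed by tumour, but the DNA under them was in part the same. A sub-peak centred 1.6 to 1.9 kb from the centre was called with water (1075 bp), DMSO (459 bp) and (+)-Nutlin (408 bp), each time in tumour 5. One at 2.3 kb was called in tumour 6 with doxorubicin (572 bp) and with (-)-Nutlin (532 bp). One at 1.0 kb was called in tumour 7 with water (108 bp) and (+)-Nutlin (77 bp), at the edge of the main peak in narrow lists. Single peaks remained with (+)-Nutlin, of 427 bp at 2.7 kb in tumour 5 and of 60 bp at -1.3 kb in tumour 7. Grouped in this way, peaks of this set that recurred did so within 1 tumour and across treatments. Yet the water peak of tumour 5, from 156904861 to 156905935, overlapped the tumour 6 peaks at 2.3 kb, which began at 156905521 and 156905527. The tumour 7 peaks at 1.0 kb lay inside the main peak of untreated tumour 5, which ended at 156905291. How far the splitting of calls shapes these positions was not tested. Joined over all lists, main peak, sub-peaks and satellite form the region of 4957 bp from 156902108 to 156907064.

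The other site of the window lay 43.3 kb to the right of the centre, from 156946612 to 156947072. This site may be nearer to the gene than the main peak or farther from it, and may lie at the gene's start, which was not tested. The site was called in activated lists alone, with OHT in tumours 1 (371 bp), 3 (424 bp) and 4 (365 bp). It was also called with doxorubicin in tumour 5 (350 bp) and with (-)-Nutlin in tumour 6 (359 bp). It was thus in 5 of 10 activated and 0 of 16 unactivated lists. The widths were small for these lists, at percentiles from 12.5 to 32.7. Of 1570 regions with a peak in exactly 5 activated lists, 86.1% had none in an unactivated list, so that this pattern is near the background. Whether the number of peaks in a list bears on the call was not tested. The doxorubicin and (-)-Nutlin lists that held the site were the longest of their groups, with 11346 and 10674 peaks, and OHT tumour 2, the OHT list without it, was the shortest of its group (3597). However, OHT tumour 1 had the site with 4102 peaks. It was absent from (-)-Nutlin tumours 5 (10503 peaks) and 7 (5617) and from doxorubicin tumours 6 (8250) and 7 (9523).

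In number of peaks, EtOH lists had 1 each in the window, and activated lists 2 to 4. OHT lists held 11 peaks together, doxorubicin 8, (-)-Nutlin 8, water 7, (+)-Nutlin 7, DMSO 4 and untreated cells 4. Beyond the main peak, (+)-Nutlin lists held sub-peaks alone, water lists 2 sub-peaks and 2 satellites, and activated lists mostly the satellite and the distant site.

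Other sites were set beside the Ier5 region across the series. Among the other 8 regions called in every list, likeness was measured as the mean absolute difference from Ier5 in percentile of width over the 26 lists. The closest was a region on chromosome 7 from 16892674 to 16895642, at a difference of 0.683 percentage points. It was followed by chromosome 2 from 75605181 to 75607199 (2.48) and chromosome 19 from 44326969 to 44329957 (2.50). In EtOH lists the widest peaks of these regions were 141 to 1022 bp, 99 to 828 bp and 116 to 520 bp, against 596 to 1010 bp at Ier5. The lowest percentile in any list was 92.1, 75.7 and 83.6 for these regions and 98.3 for Ier5. The Pearson correlation of log2 covered length with Ier5 over the 26 lists was 0.92, 0.82 and 0.89, which the lists' kind and length enter for all regions alike. By that correlation the closest were regions on chromosome 8 from 4610060 to 4613817 (0.95) and chromosome 11 from 6425970 to 6429051 (0.95). The region on chromosome 7 was wider than Ier5 in 8 of the 26 lists. A region on chromosome 17 from 39979743 to 39985974, named after its values were seen, was the widest of its list in 16 lists and wider than Ier5 in 16. As the input libraries were not analysed, whether this or any other region also stands out in input was not tested.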

How the data were processed

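Per the labels' protocols, chromatin was sonicated to about 250 bp and precipitated with a p53 antibody (CM5p), giving 26 immunoprecipitates; the 7 input libraries were not analysed here. BWA 0.6.2, SAMtools and build mm9 are named in the submitters' processing notes. Which program called peaks, and with which cutoff or input, is not given in the sources used here.

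Each immunoprecipitate has 1 deposited list, whose values are the chromosome, start and end of every peak in base pairs, with no score or count, so that depth and counting error are unknown. No pair of lists was identical.

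Coordinates are printed counted from 1. Peaks sharing at least 1 bp were merged; sub-peaks were separated where midpoints lay over 300 bp apart. A list is wide where its smallest peak exceeds 200 bp. Covered length (log2) and percentile of width were compared by two-sided exact permutation tests in 6 comparisons each, 12 tests, with Benjamini-Hochberg adjustment and a threshold of 0.05. Intervals at 95% come from paired log2 differences taken as normal. Tumour numbers in the titles are taken to mark the same tumour and pair the lists, from the titles alone; at this locus the values give no check of it, as all tumour 5 lists are wide. Whether tumours are from separate mice is not stated in the labels.

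Named were Ier5, all regions of the window, the 3 regions most like it and its neighbouring genes. The locus, the regions and the tests were chosen with earlier results of these data known. A list of other p53 targets was not used, as no mm9 annotation was at hand. Background shares over regions, and tumour 5 alone, were added after seeing the data. Code ran in Python 3.11.15 with NumPy 2.4.6, pandas 2.3.3, SciPy 1.17.1 and matplotlib 3.10.9 and was tested on simulated lists.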

Additional observations from a re-analysis of the deposited data

Results flagged for a closer look

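In EtOH tumour 1 the percentile of the Ier5 peak was 98.3, while it was 100 in the other 3 EtOH lists, which makes this list stand apart from its group. The list is the shortest of the series, with 116 peaks, and the Ier5 peak is the third widest in it at 1010 bp, longer than in any other EtOH list. With the other 3 lists at the ceiling of the measure, any lower rank would stand apart in this way, so the usual chance of 1 group in 20 does not apply. In all, 10 combinations of group and measure were examined.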

How the results depend on the processing

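Of 103 values under alternatives fixed beforehand, 94 kept their direction and their side of the threshold, 8 turned direction and 1 passed the threshold. Much of the count of 94 was fixed in advance. The tumour as block changes p alone, no peak crosses the ends of the window, and keeping the widest region alone left percentiles unchanged. With 1 tumour left out, exact permutation p between single groups was at least 0.1 for OHT against EtOH. It was at least 0.333 for the others, so none could pass. With all tumours kept, no comparison between single groups could pass the adjustment either. The tumour as replicate block gave exact p of 0.125 for OHT against EtOH, the smallest possible, and 0.0504 for activated against other Arf lists, and changed no call. For covered length (log2), leaving out 1 tumour gave 1.62 to 1.76 for OHT against EtOH, 0.06 to 0.75 for doxorubicin against water, 0.03 to 0.59 for (-)-Nutlin against DMSO, 0.06 to 0.20 for (+)-Nutlin against DMSO, -0.17 to 0.52 for (-)-Nutlin against (+)-Nutlin, and 0.066 to 0.69 for activated against other Arf lists. The last value, without tumour 5, was the one to pass (adjusted exact permutation p 0.0485), and the fall to -0.17 came without tumour 6. The value that passed compares wide with narrow lists of tumours 6 and 7, permuted freely and not within tumours. For percentiles (points) the ranges were -0.26 to 0.32 for OHT against EtOH (turned without tumour 1), -0.33 to 0.00065 for doxorubicin against water (turned without tumour 6), -0.23 to 0.15 for (-)-Nutlin against DMSO (turned without tumour 7), -0.11 to 0.17 for (-)-Nutlin against (+)-Nutlin (turned without tumour 5), -0.11 to -0.02 for (+)-Nutlin against DMSO and -0.25 to -0.02 for activated against other Arf lists. Taking the widest peak in place of covered length turned (-)-Nutlin against DMSO to -0.032 and against (+)-Nutlin to -0.052, an alternative that leaves the satellite out by construction, and joining peaks within 500 bp turned the latter's percentile difference to -0.0095. Only 1 of the 3 regions most like Ier5 stayed among the first 3 by correlation of covered length. With peaks of at least 278 bp, 1 EtOH list kept 1 peak, so the percentile for OHT against EtOH could not be given. Without read depth, a peak that is not listed cannot be told from one below the caller's threshold.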
